A study of Oryza sativa Japonica Group with 12 samples.

Results

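Panicles of the female-sterile rice mutant fst and of the wild type (WT) were compared at the before flowering (BF) stage, with 3 fst arrays (MBF) and 3 WT arrays (WBF) of the 12 arrays of the series. All 57258 probe sets of the Affymetrix Rice GeneChip other than its control probe sets were compared, and the question was which transcripts differ between the genotypes in the flower before pollination. All plants were Oryza sativa of a japonica cultivar, raised in a greenhouse in natural light, and the labels give the mutant under its earlier name, as cyn mutant, and the WT as CYN wild lines. The mutant arose spontaneously in Junambyeo and carries a short deletion that shifts the reading frame of FST (OsMADS29, LOC4328443) within its MADS domain, so it rests on 1 allele. The description label of the mutant arrays reads as wild lines, against their title, source and genotype, which were followed. Pools of 20 panicles, taken from 10 plants, made up the samples, and the labels number the samples as biological replicates. The sources used here do not say whether the WT plants were siblings of the mutant. The paper reports that fst plants flowered earlier than WT plants, and it does not give the sampling days of the genotypes. Differences of date or exact stage therefore cannot be told apart from those of genotype. Effects of fst below are differences between the fst and WT arrays, whatever their source.

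FST belongs to the B-sister group of MADS-box factors, DNA-binding proteins that control the identity and growth of floral organs. B-sister genes are known from several flowering plants for their expression in the ovule and for their part in forming the integuments and the seed coat. The ovule is a small share of a panicle, which also holds anthers, filaments, lodicules, lemma, palea and branches, so each signal is a mixture over all these organs. In such bulk samples, fewer cells of a type and less RNA per cell cannot be told apart.

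The arrays were alike as a whole, with correlations of log2 signals from 0.993 to 0.996 within the 2 groups and array medians from 31.3 to 33.6. By the rule for calls given below, 2.34% of all 17905 genes were higher in fst and 4.4% lower. Genes of lemma, palea and lodicule identity (7 of 7 measured, none called) had summed signals of 34342 to 36425 in WBF and 35614 to 36704 in MBF. Of 6 seed markers only GLUA-2 was called (higher in fst), while GLUA-1 and RAG2 were at or under 41.1 on every array. The call on GLUA-2 was lost without any 1 of the 6 arrays (adjusted limma p from 0.0676 to 0.119) and after median centring (0.0668). Another, dimmer probe set of GLUA-2 did not pass, at a log2 change of -0.20. Of 6 pistil and ovule markers, MADS21 and FST itself were higher in fst and none was lower. Of 10 anther and tapetum markers, 4 were lower and none was higher, with summed signals of 9035 to 19248 in WBF and 3271 to 9972 in MBF. These sums were led by the anther gene RTS, and the lowest WBF array (WBF2) and the highest MBF array (MBF2) overlapped. The 4 lower markers, TDR, EAT1, RTS and RAFTIN1, are also the lower genes of the tapetum list below. Markers of dividing cells (13 genes, none called) summed to 18065 to 19028 in WBF and 15606 to 16914 in MBF. The part of anther content, cell division or sampling date in the results below was not tested.

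A probe set was called when its limma p was under 0.05 after Benjamini-Hochberg adjustment over the 57258 probe sets. By this rule 1039 probe sets (1.81%) were higher in fst and 1605 (2.8%) were lower. At least 2-fold changes numbered 161 higher (0.281%) and 332 lower (0.58%). With the array medians set equal, 749 (1.31%) were higher and 2072 (3.62%) were lower, so the balance between directions depends on the scaling. The counts also rest on single arrays. The number higher was 411 without WBF1, 507 without WBF2, 687 without MBF1 and 504 without MBF2, and the number lower was 730, 900, 927 and 878 without the same arrays.

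Most of these changes were moderate. Of the higher probe sets 402 changed less than 1.5-fold, 476 between 1.5-fold and 2-fold, 155 between 2-fold and 4-fold and 6 by 4-fold or more, and the median was 1.56-fold. Of the lower probe sets 516 changed less than 1.5-fold, 757 between 1.5-fold and 2-fold, 261 between 2-fold and 4-fold and 71 by 4-fold or more, with a median of 1.63-fold. The fst arrays lay wholly above the WBF arrays for 1038 of the 1039 higher probe sets and wholly below for 1602 of the 1605 lower. Over all probe sets, 15% had all fst arrays above and 13.5% all below. Separate arrays thus came with nearly every call, and the rule for the largest changes required them, so they add no support where they are named below. The higher probe sets name 455 genes and the lower 956, while most of the array has no listed gene (34727 probe sets).

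**Figure D1:**
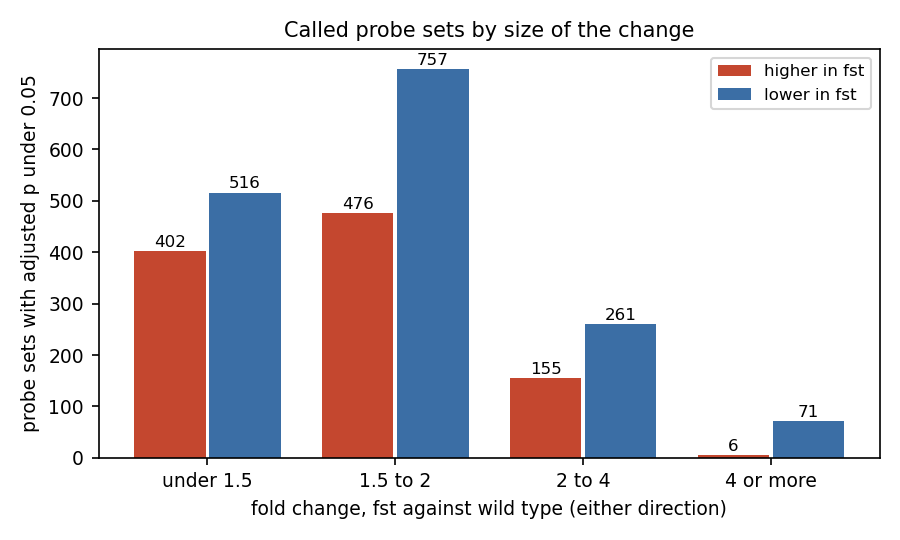
Number of called probe sets (adjusted p under 0.05) in each band of fold change between fst and WT before flowering, for probe sets higher and lower in fst. The lower probe sets outnumber the higher in each band, most in the band of 4-fold or more, with 71 against 6.

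FST transcript itself was about 2-fold higher in the mutant, where the deletion shifts the reading frame. Its signals were 116, 123 and 106 in WBF and 235, 211 and 236 in MBF, a log2 change of 0.98 (adjusted p = 0.000928, SE 0.12). All MBF arrays lay above all WBF arrays, and the arrays of a genotype were close together. MADS30, the other B-sister gene with a probe set, was dim, close to the floor of the array, at 4.62, 5.62 and 5.33 in WBF and 4.08, 5.33 and 5.04 in MBF, and its log2 change of -0.11 (adjusted p = 0.725, SE 0.16) did not pass. No gene was called among the 30 measured genes within 20 gene positions of FST on chromosome 2 (log2 changes from -0.52 to 0.38, gene order of the assembly ASM3414082v1).

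Of 31 measured MADS-box genes, 3 were higher, FST itself and MADS21 and MADS27, and 1 was lower, against 2.34% and 4.4% of all 17905 genes. MADS21, a relative of the ovule identity genes, gave 63.3, 59.8 and 45.8 in WBF and 104, 83.3 and 112 in MBF, a log2 change of 0.83 (adjusted p = 0.0214, SE 0.18). MADS27, which belongs to the group of the Arabidopsis root factor ANR1, gave 97.5, 82.1 and 73.8 in WBF and 152, 166 and 173 in MBF, a log2 change of 0.96 (adjusted p = 0.0487, SE 0.25). In both genes every fst array was above every WT array. MADS26 was the member that fell, from 210.0, 196 and 162 in WBF to 85.9, 115 and 107 in MBF, a log2 change of -0.89 (adjusted p = 0.0114, SE 0.17). The call on MADS21 was lost without WBF3, MBF1 or MBF3 (adjusted p from 0.0686 to 0.0692), that on MADS27, whose other, dimmer probe set did not pass, without any 1 of the 6 arrays (adjusted p from 0.0861 to 0.129) and after median centring (adjusted p = 0.0668), and that on MADS26 without WBF1 (adjusted p = 0.0576).

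Cell wall genes differed by family. Expansins, wall proteins that let cellulose and its matrix slip during growth, were higher for 6 of 29 measured genes and lower for none, against 2.34% and 4.4% of all genes, with a median log2 change of 0.21 against -0.055 over all genes. Of the 29, 24 had a log2 change above 0, and 4 or 5 were called higher when any 1 array was left out. EXPA29 gave signals of 259, 348 and 331 in WBF and 535, 702 and 979 in MBF, a log2 change of 1.21 (adjusted p = 0.0068, SE 0.21). EXPB2 gave 394, 276 and 385 in WBF and 861, 624 and 889 in MBF, a change of 1.17 (adjusted p = 0.0104, SE 0.22). EXPA2, the brightest of these, gave 907, 1128 and 1039.7 in WBF and 1752, 1957 and 1945 in MBF, a change of 0.88 (adjusted p = 0.00496, SE 0.15). In each of these expansins the lowest fst array exceeded the highest WT array, although MBF2 was low for EXPB2 and MBF3 high for EXPA29. EXPB6 rose from 305, 212 and 244 to 440.4, 414 and 436, a log2 change of 0.78 (adjusted p = 0.0228, SE 0.17) that was lost without WBF2, WBF3, MBF1, MBF2 or MBF3 (adjusted p from 0.0591 to 0.0941).

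Endo-glucanases of glycosyl hydrolase family 9 are enzymes that cut and trim wall glucans. They held the largest rises among named genes outside the main table of the study with separate arrays and a mean signal of at least 100. Of 14 measured, 3 were higher and 2 lower, against 2.34% and 4.4% of all genes. GLU8 gave signals of 96.1, 180.1 and 93.7 in WBF and 293, 346 and 399.6 in MBF, a log2 change of 1.55 (adjusted p = 0.00603, SE 0.27). GLU13 gave 281, 304 and 302 in WBF and 728, 928 and 899 in MBF, a change of 1.52 (adjusted p = 0.000126, SE 0.14). Its WT arrays were nearly equal, and every fst array was far above them. GLU5 gave 282, 305 and 234 in WBF and 547, 604 and 590.1 in MBF, a change of 1.09 (adjusted p = 0.0429, SE 0.28), again without overlap. The call on GLU5 was lost without any 1 of the 6 arrays (adjusted p from 0.0846 to 0.113) and after median centring (adjusted p = 0.0566). The members that fell were GLU14, a dim probe set with a change of -1.10 (adjusted p = 0.0206, SE 0.24), and GLU1, which is known in rice for internode elongation, with -0.53 (adjusted p = 0.00959, SE 0.10). The call on GLU14 was lost without MBF2 or MBF3 (adjusted p from 0.0502 to 0.0673), with only the 6 arrays of this stage in the fit (adjusted p = 0.0683) and with 16 added to the signals (adjusted p = 0.0507), and 1 endo-glucanase was lower without MBF2 or MBF3.

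Genes of the cellulose synthase superfamily moved both ways. Of 29 measured, 2 were higher and 3 lower, against 2.34% and 4.4% of all genes, with a median log2 change of -0.14. CSLD5 gave 349, 358 and 280.4 in WBF and 526, 735 and 667 in MBF, a log2 change of 0.96 (adjusted p = 0.00236, SE 0.14). CSLC9, of the family that makes the glucan backbone of xyloglucan, gave 871, 931 and 846 in WBF and 1471, 1313 and 1539 in MBF, a change of 0.70 (adjusted p = 0.00199, SE 0.10). Both rose without overlap between the genotypes, while CSLC2 of the same family fell from 141, 133 and 141 to 82.3, 101 and 91.6, a change of -0.60 (adjusted p = 0.00454, SE 0.10). CSLF8, of a family that makes the mixed-linkage glucan of grass walls, fell from 59.8, 42.2 and 55.9 to 29.7, 25.0 and 22.9, a change of -1.02 (adjusted p = 0.0043, SE 0.16). Its WT arrays were more spread than its fst arrays and lay wholly above them.

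Further wall genes added 2 rises and 4 falls among 50 measured, against 2.34% and 4.4% of all genes. Of these falls 1 is the anther gene RAFTIN1, which is counted again among the tapetum genes below. PMEI28, an inhibitor of the enzymes that remove methyl groups from pectin, gave 105, 72.0 and 105 in WBF and 127, 198 and 268 in MBF, a log2 change of 1.03 (adjusted p = 0.0289, SE 0.24). The fst arrays were widely spread, and the call on PMEI28 was lost without WBF1, WBF2, MBF2 or MBF3 (adjusted p from 0.0602 to 0.113) and with only the 6 arrays of this stage in the fit (adjusted p = 0.0689). MAN1, an endo-mannanase that cuts mannan in the wall, gave 1509, 1603 and 1694 in WBF and 2518, 2409 and 2305 in MBF, a change of 0.59 (adjusted p = 0.00865, SE 0.11), with all arrays of a genotype close together. BC1L6, a COBRA-like protein of a family needed for cellulose assembly, fell from 371, 391 and 334 to 194, 219 and 236, a change of -0.76 (adjusted p = 0.00865, SE 0.14). Of these genes 1 was higher without WBF1, WBF2, MBF2 or MBF3, and 1 was lower without WBF1, WBF3, MBF1 or MBF3 and 2 without WBF2 or MBF2. CASPL5A1, of a family of membrane proteins related to those of the Casparian strip, was the only called gene of 22 and fell from 468, 450.5 and 463 to 279, 293 and 279, a change of -0.70 (adjusted p = 0.000779, SE 0.09). Its arrays were nearly equal within each genotype.

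**Figure D2:**
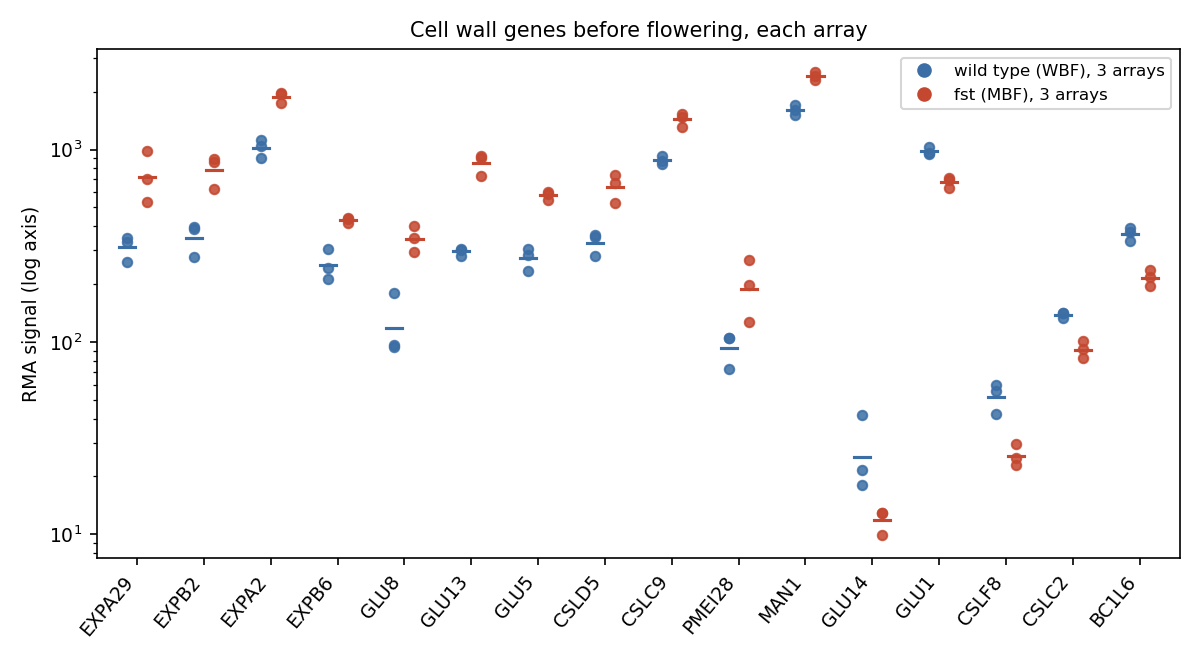
RMA signal (log axis) of 16 cell wall genes before flowering on each array, with WBF in blue and MBF in red and a bar at the geometric mean of each group. From EXPA29 to MAN1 the MBF arrays lie above the WBF arrays, and from GLU14 to BC1L6 they lie below.

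Of 38 genes of chloroplast function and photorespiration, 5 were higher and 1 was lower against 2.34% and 4.4% of all genes, while the median log2 change was 0.03 and 20 of the 38 were above 0. NDH-M, a subunit of the chloroplast NDH complex that cycles electrons around photosystem I, gave 226, 254 and 239 in WBF and 387, 447 and 401 in MBF, a log2 change of 0.78 (adjusted p = 0.000882, SE 0.10). GLO5, a glycolate oxidase of photorespiration, gave 1039.6, 1143 and 1291 in WBF and 1925, 2028 and 1801 in MBF, a change of 0.73 (adjusted p = 0.00175, SE 0.10), and its dimmer probe set gave 0.62 (adjusted p = 0.00238, SE 0.09). FBPase, a fructose bisphosphatase of sugar synthesis, gave 401, 347 and 413 in WBF and 603, 645 and 469 in MBF, a change of 0.56 (adjusted p = 0.023, SE 0.12). The genotypes did not overlap in any of these genes. PRDA1, known from Arabidopsis for transcription in the chloroplast, went the other way, from 1088, 1152 and 949 to 593, 626 and 745, a change of -0.70 (adjusted p = 0.00799, SE 0.13), while its other, dimmer probe set did not pass. The count of higher genes was 2 without WBF1, WBF2 or MBF2 and 3 without MBF1 or MBF3, and the call on FBPase was lost without WBF1, WBF2, MBF1 or MBF2 (adjusted p from 0.063 to 0.096) and with only the 6 arrays of this stage in the fit (adjusted p = 0.0686). The green tissue markers gave no call, with summed signals of 30213 to 34732 in WBF and 31594 to 34119 in MBF.

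Of the clock and flowering genes, 2 of 21 were higher and none was lower (1 higher without WBF1, WBF3, MBF1 or MBF2), against 2.34% and 4.4% of all genes. PCL1, the rice relative of the evening clock factor LUX of Arabidopsis, gave 1683, 1734 and 2132 in WBF and 3185, 2878 and 3399 in MBF, a log2 change of 0.77 (adjusted p = 0.00457, SE 0.13). Its lowest fst array was well above its highest WT array. SPL18, an SBP-box factor, gave 139.6, 98.6 and 121 in WBF and 219, 218 and 202 in MBF, a change of 0.85 (adjusted p = 0.00225, SE 0.12), and SHAT1, an AP2 factor known in rice for the abscission zone of the spikelet, gave 399.9, 400.2 and 449 in WBF and 581, 644 and 678 in MBF, a change of 0.61 (adjusted p = 0.00897, SE 0.11). The other probe sets of SHAT1 were dimmer, and 1 rose past the test by 0.42 on the log2 scale while the other did not pass, at 0.16. BZIP02 was the most raised of 22 bZIP factors, from 111, 149 and 102 to 258, 207 and 321, a change of 1.12 (adjusted p = 0.00327, SE 0.17). None of the 51 homeobox factors and none of 25 NAC, WRKY and MYB factors passed.

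Some of the rises lay in genes of transport and signalling, while 2.34% of all genes were higher and 4.4% lower. SIP2;1, a small basic intrinsic protein of the aquaporin family, gave 225, 354 and 298 in WBF and 586, 599.6 and 899.7 in MBF, a log2 change of 1.25 (adjusted p = 0.00332, SE 0.19). Of 25 aquaporins 1 was higher and 1 lower, which is close to the shares of all genes. ILL2, of the enzymes that free auxin from its amino acid conjugates, gave 448, 527 and 467 in WBF and 841, 1117 and 1150.2 in MBF, a change of 1.10 (adjusted p = 0.0019, SE 0.15). Of 67 auxin genes 1 was higher and 1 lower, not above the shares of all genes. CPK21, a calcium-dependent protein kinase, gave 373, 514 and 579 in WBF and 729, 959.9 and 1493 in MBF, a change of 1.08 (adjusted p = 0.0444, SE 0.28). The arrays of these genes did not overlap, but those of CPK21 ran over a wide range within each genotype. YSL1, of the yellow stripe-like transporters of chelated metals, changed by 0.75 (adjusted p = 0.0088, SE 0.14), and NIN3, a neutral invertase that cleaves sucrose, by 0.64 (adjusted p = 0.00553, SE 0.11). The call on CPK21 was lost without WBF1, WBF2, WBF3, MBF2 or MBF3 (adjusted p from 0.0553 to 0.171), after median centring (adjusted p = 0.0521) and with only the 6 arrays of this stage in the fit (adjusted p = 0.059).

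Among probe sets with 1 listed gene, separate arrays and a mean signal of at least 100, the largest rises outside the main table of the study lay in genes without a name. Of the 6 probe sets that rose 4-fold or more, 3 had 1 listed gene. LOC4350420, a nucleoside-triphosphatase by its definition, gave 106, 80.0 and 185 in WBF and 665, 727 and 528 in MBF, a log2 change of 2.45 (adjusted p = 0.001, SE 0.31). LOC9267054, defined only as 26S proteasome, gave 16.3, 38.4 and 21.9 in WBF and 73.1, 84.5 and 156 in MBF, a change of 2.05 (adjusted p = 0.00471, SE 0.34). Both were dim to moderate in WT, and separate arrays were a condition of being listed here. LOC4350552 was measured by a pair of probe sets that agreed, the first with 31.5, 47.7 and 43.3 in WBF and 168, 115 and 208 in MBF and a change of 1.98 (adjusted p = 0.000147, SE 0.19), the second with 1.56 (adjusted p = 0.000265, SE 0.16). LOC4328807 gave 85.7, 65.3 and 72.6 in WBF and 249, 246 and 277 in MBF, a change of 1.80 (adjusted p = 1.33e-05, SE 0.13) with all fst arrays well above all WT arrays. LOC4342820, LOC4351057, LOC4328169, LOC4334965 and LOC4325521 followed, with log2 changes from 1.49 to 1.63. The call on LOC4325521 was lost without WBF1 (adjusted p = 0.0516).

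Small heat shock proteins, which hold unfolding proteins until they can be refolded, were the family with the largest share of lower genes. Of 19 measured, 9 were lower and none was higher against 4.4% and 2.34% of all genes, and the median log2 change was -0.48 against -0.055 over all genes. Without any 1 of the arrays, 6 to 8 were lower. The summed signal was 44863 to 48460 in WBF and 32742 to 34719 in MBF. Near-identical class I members can share probes, so single members are less certain than the family.

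HSP26.7, of the chloroplast class, gave 756, 793 and 703 in WBF and 261, 178 and 252 in MBF, a log2 change of -1.72 (adjusted p = 0.000126, SE 0.16). HSP23.2, a class IV protein by its definition, gave 767, 1016 and 1070.2 in WBF and 379.8, 169 and 497 in MBF, a change of -1.57 (adjusted p = 0.0143, SE 0.32). HSP18.6 had a pair of called probe sets, the brighter with 1362, 1834 and 1528 in WBF and 794, 491 and 647 in MBF and a change of -1.31 (adjusted p = 0.000918, SE 0.16) and the dimmer with -1.31 (adjusted p = 0.000238, SE 0.14). In all of these the highest fst array was below the lowest WT array, and MBF2 was the lowest fst array of each. HSP16.0 changed by -1.58 (adjusted p = 0.000496, SE 0.18) and HSP26.2 by -1.11 (adjusted p = 0.00142, SE 0.15). The call on HSP23.2 was lost without WBF2 (adjusted p = 0.0543).

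Other chaperones followed with 5 of 30 lower and none higher, against 4.4% and 2.34% of all genes, and only 2 of the 30 had a log2 change above 0. CLPB1 (HSP101), the disaggregase that pulls proteins out of heat-formed aggregates, gave 154, 188 and 175 in WBF and 89.9, 90.0 and 94.2 in MBF, a log2 change of -0.91 (adjusted p = 0.0055, SE 0.15). CLPB3, of the same family and directed to an organelle, gave 111, 121 and 85.3 in WBF and 55.4, 61.3 and 48.8 in MBF, a change of -0.93 (adjusted p = 0.00982, SE 0.17). ERDJ3A, a J-domain protein of the endoplasmic reticulum, gave 1125, 860.0 and 695 in WBF and 558, 455 and 431 in MBF, a change of -0.87 (adjusted p = 0.014, SE 0.17). All 3 fell without overlap, and the fst arrays of CLPB1 were nearly equal. HSP81-1, a member of the HSP90 family, was bright in both genotypes at 4727, 4737 and 4403 in WBF and 3653, 3270.2 and 2639 in MBF, a change of -0.55 (adjusted p = 0.0235, SE 0.12), while its other, dimmer probe set did not pass, at -0.18. The number of lower chaperones was 2 without WBF1 or MBF2 and 3 without WBF2 or MBF3. The call on ERDJ3A was lost without WBF1, MBF2 or MBF3 (adjusted p from 0.0501 to 0.0595), and that on HSP81-1 without WBF1, WBF2, MBF2 or MBF3 (adjusted p from 0.0587 to 0.0877) and with only the 6 arrays of this stage in the fit (adjusted p = 0.0591).

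Among 20 heat shock factors, the transcription factors that switch these genes on or damp them, 2 were lower and none was higher. This compares with 4.4% and 2.34% of all genes, and the median log2 change of the factors was -0.24. HSFB2A gave 62.5, 65.9 and 54.5 in WBF and 29.8, 36.6 and 37.6 in MBF, a change of -0.82 (adjusted p = 0.00263, SE 0.12), while another probe set of it, dimmer, did not pass. HSFA2B was dim at 22.8, 21.6 and 20.6 in WBF and 13.8, 16.4 and 12.2 in MBF, a change of -0.62 (adjusted p = 0.0115, SE 0.12) that was lost without WBF1 (adjusted p = 0.0566), where 1 factor was lower. In both genes the genotypes were separate.

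**Figure D3:**
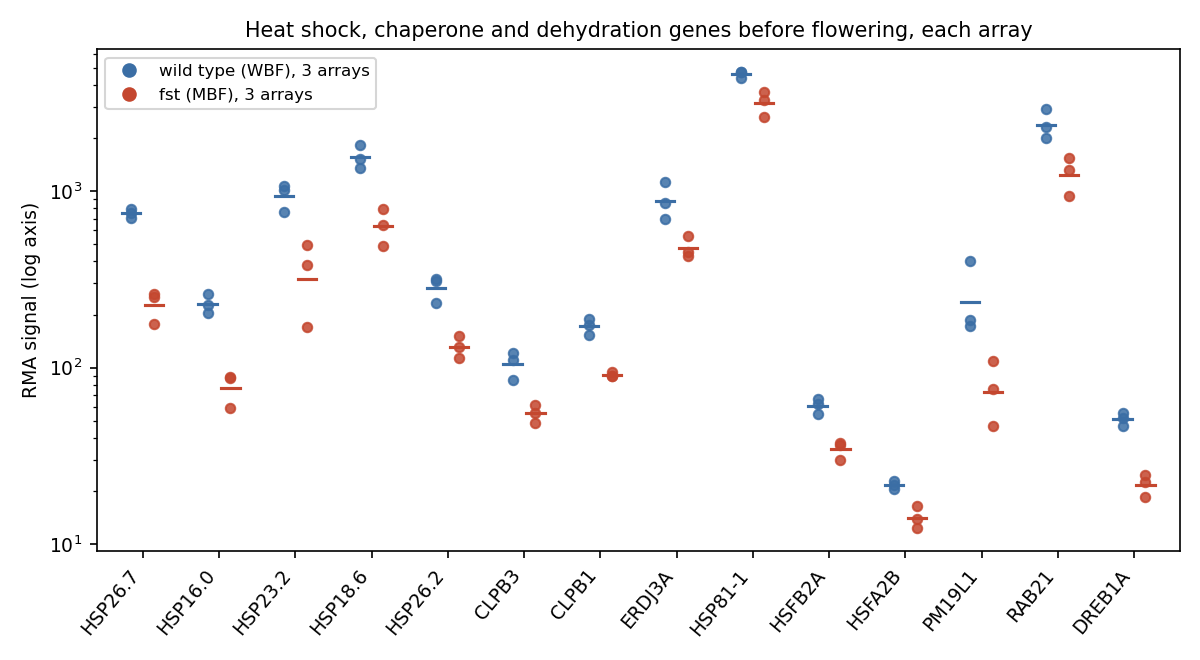
RMA signal (log axis) of heat shock, chaperone, heat shock factor and dehydration genes before flowering on each array, with WBF in blue and MBF in red and a bar at the geometric mean of each group. For all 14 genes the MBF arrays lie below the WBF arrays, from dim factors such as HSFA2B to HSP81-1.

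Of 9 dehydrins, LEA and PM19 proteins, which guard membranes and proteins in drying tissue, 2 were lower and none was higher against 4.4% and 2.34% of all genes, with a median log2 change of -0.42 and 4 of the 9 above 0. RAB21, a dehydrin induced by abscisic acid, gave 2012, 2306 and 2927 in WBF and 940.3, 1313 and 1543 in MBF on its brighter probe set, a change of -0.94 (adjusted p = 0.00897, SE 0.17), and -1.19 (adjusted p = 0.00485, SE 0.20) on the other. PM19L1, a membrane protein of the PM19 family, gave 172, 187 and 401 in WBF and 75.6, 109 and 46.9 in MBF, a change of -1.69 (adjusted p = 0.0186, SE 0.36). Both were separate between the genotypes, with WBF3 the highest WT array of each. DREB1A, an AP2/ERF factor that switches on genes of cold and drought, was dim at 46.9, 55.1 and 52.0 in WBF and 18.5, 22.4 and 24.8 in MBF, a change of -1.24 (adjusted p = 0.000404, SE 0.14). The call on PM19L1 was lost without WBF3, MBF1 or MBF3 (adjusted p from 0.0513 to 0.0616), where 1 gene of the 9 was lower. None of 17 genes of abscisic acid synthesis and signalling passed.

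Of 40 jasmonate genes, 2 were lower and none was higher, close to the 4.4% lower and 2.34% higher of all genes. Both of the lower genes encode JAZ proteins, repressors that jasmonate removes. JAZ13 gave 352, 429 and 738 in WBF and 174, 292 and 187 in MBF, a log2 change of -1.18 (adjusted p = 0.0386, SE 0.29). JAZ9 was bright, at 3354, 3041 and 3213 in WBF and 2310.5, 1568 and 1537 in MBF, a change of -0.85 (adjusted p = 0.0332, SE 0.20). The genotypes did not overlap, although WBF3 stood high for JAZ13 and MBF1 high for JAZ9. The call on JAZ13 was lost without WBF2, WBF3, MBF1 or MBF3 (adjusted p from 0.0793 to 0.129), with quantile normalization repeated (adjusted p = 0.0532), with array weights (adjusted p = 0.0524) and with only the 6 arrays of this stage (adjusted p = 0.0594), and that on JAZ9 without WBF1, WBF2, WBF3, MBF2 or MBF3 (adjusted p from 0.0747 to 0.115). No jasmonate gene was lower without WBF3 or MBF3, and 1 was without WBF1, WBF2, MBF1 or MBF2. IAA14, an Aux/IAA repressor of auxin signalling and the only 1 of 67 auxin genes lower, fell from 302, 307 and 362 to 179, 215 and 167, a change of -0.79 (adjusted p = 0.0155, SE 0.16) that was lost without WBF3, MBF1 or MBF3 (adjusted p from 0.0532 to 0.0544). None of 15 gibberellin genes passed.

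A pair of phosphate transporters of the Pht1 family, which carry phosphate across the plasma membrane, were the only called genes among 19 of phosphate transport and signalling, where 4.4% of all genes were lower. Pht1;7 gave 154, 229 and 293 in WBF and 123, 50.9 and 65.3 in MBF, a log2 change of -1.55 (adjusted p = 0.0127, SE 0.31). Pht1;12 gave 89.9, 87.2 and 150.3 in WBF and 33.9, 51.2 and 28.4 in MBF, a change of -1.53 (adjusted p = 0.00238, SE 0.23). Both were lower on every fst array than on any WT array, and the call on Pht1;7 was lost without MBF2 (adjusted p = 0.0545). HAK26, of the HAK family of potassium transporters, fell from 499, 632 and 501 to 367, 223 and 220.5, a change of -1.04 (adjusted p = 0.00642, SE 0.18). SWEET2b, of the SWEET sugar transporters, changed by -0.79 (adjusted p = 0.00627, SE 0.14).

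TPI, the triose phosphate isomerase of glycolysis, had the largest fall among named genes outside the main table of the study that had separate arrays and a mean signal of at least 100. Its probe set gave 2568, 2118 and 1415 in WBF and 560.2, 405 and 566 in MBF, a log2 change of -1.97 (adjusted p = 0.000203, SE 0.20). The WT arrays varied among themselves, but the lowest of them was far above the highest fst array. The other probe set of this gene was far brighter (mean signal 11576) and did not pass, at a log2 change of -0.16, so the probe sets of TPI disagree.

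Genes of the tapetum, the anther layer that feeds pollen and supplies its wall, were lower for 4 of 12 measured and higher for none, against 4.4% and 2.34% of all genes. The study reported that the mutation left anther development and pollen viability unaffected. The regulators TDR and EAT1 lay well apart between the genotypes. TDR gave 260.4, 254 and 297 in WBF and 119, 99.1 and 106 in MBF, a log2 change of -1.33 (adjusted p = 0.000212, SE 0.13), and EAT1 gave 112, 141 and 125 in WBF and 60.0, 45.4 and 37.8 in MBF, a change of -1.42 (adjusted p = 0.000393, SE 0.16). RAFTIN1, of a family of BURP-domain proteins that wheat anthers export to the pollen wall, gave 593, 416 and 819 in WBF and 246, 412 and 276 in MBF, a change of -0.95 (adjusted p = 0.0297, SE 0.22), so that its MBF2 and WBF2 arrays were nearly equal. RTS gave 14625, 6518 and 15621 in WBF and 2008, 7607 and 1371 in MBF, a change of -2.05 (adjusted p = 0.04, SE 0.51) in which MBF2 overlapped WBF2. Without MBF2 the change of RTS was -2.78. The call on RTS was lost without WBF1, WBF3, MBF1 or MBF3 (adjusted p from 0.107 to 0.144), and with eBayes trend (adjusted p = 0.1), only the 6 arrays of this stage (adjusted p = 0.093), array weights (adjusted p = 0.0653) or 16 added to the signals (adjusted p = 0.0531). That on RAFTIN1 was lost without WBF1, WBF3, MBF1 or MBF3 (adjusted p from 0.0821 to 0.109) and with only the 6 arrays of this stage (adjusted p = 0.0847). Without WBF1, WBF3, MBF1 or MBF3, 2 tapetum genes were lower. C6, an anther lipid transfer protein, ran with RTS over the arrays at 1258, 218 and 851 in WBF and 151, 463 and 162 in MBF, and its adjusted p was 0.143.

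Meiosis genes had 1 of 16 higher and 2 lower, against 2.34% and 4.4% of all genes, and 1 lower without WBF1, WBF2, WBF3, MBF1 or MBF2. MEL1, the Argonaute of rice germ cells, gave 308, 430.0 and 501 in WBF and 199, 235 and 217 in MBF, a log2 change of -0.90 (adjusted p = 0.00674, SE 0.16). SPO11-4, a homologue of the enzyme that cuts DNA to start recombination, rose from 619, 869 and 771 to 1203, 1146 and 1159, a change of 0.65 (adjusted p = 0.0102, SE 0.12). Both were separate between the genotypes, and MEL1 varied more in WT than in fst.

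RNA-binding proteins were among the moderate falls. Of 15 splicing and exon junction genes, 3 were lower and none was higher, against 4.4% and 2.34% of all genes. All 15 had a mean signal of 100 or more in a genotype, and their median log2 change was -0.18. PRP19, a component of the spliceosome with ubiquitin ligase activity, gave 497, 535 and 453 in WBF and 235, 291 and 314 in MBF, a change of -0.83 (adjusted p = 0.0024, SE 0.12). U2AF35A, the subunit of U2AF that reads the end of an intron, gave 828, 855 and 698 in WBF and 475, 496 and 419.8 in MBF, a change of -0.77 (adjusted p = 0.0228, SE 0.17). RSZ21a, a serine- and arginine-rich splicing factor, gave 2795, 2717 and 2696 in WBF and 1939, 1922 and 2073 in MBF, a change of -0.47 (adjusted p = 0.0275, SE 0.11). All were separate, and RSZ21a was the most even within a genotype. Of the other probe sets of RSZ21a, 1 fell by 0.92 on the log2 scale past the test and 1 did not pass. The call on U2AF35A was lost without WBF1, WBF2, MBF1, MBF2 or MBF3 (adjusted p from 0.0512 to 0.0867) and that on RSZ21a without WBF1, WBF2, WBF3, MBF1 or MBF2 (adjusted p from 0.0594 to 0.101), and without WBF1, WBF2, MBF1 or MBF2 only 1 splicing gene was lower.

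CCCH zinc finger proteins, many of which bind RNA, were lower for 7 of 50 and higher for none, against 4.4% and 2.34% of all genes. U2AF35A, counted above among the splicing genes, is 1 of the 7. C3H34 gave 72.3, 76.4 and 60.5 in WBF and 34.6, 40.4 and 36.8 in MBF, a log2 change of -0.90 (adjusted p = 0.00644, SE 0.16), C3H54 changed by -0.86 (adjusted p = 0.00684, SE 0.15), and C3H11 was bright and even at 1064, 1069.8 and 1089 in WBF and 662, 594 and 723 in MBF, a change of -0.71 (adjusted p = 0.00144, SE 0.10). The last had another probe set called in the same direction. Without WBF1, MBF1 or MBF2 the number lower was 3, and without WBF2 or MBF3 it was 4. DRB4, of the double-stranded RNA-binding partners of Dicer enzymes, was even within each genotype, at 1959, 1879 and 1833 in WBF and 1226, 1091 and 1118 in MBF, a change of -0.72 (adjusted p = 0.00117, SE 0.09). Among 24 small RNA genes 1 was higher and 2 were lower, and 1 was lower without WBF1, WBF2, MBF1 or MBF2.

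Redox genes gave some calls, where 4.4% of all genes were lower and 2.34% higher. Trxh4-1, an h-type thioredoxin, gave 361, 356 and 319 in WBF and 155, 178 and 214 in MBF, a log2 change of -0.93 (adjusted p = 0.00158, SE 0.13), with 4 of 35 thioredoxins and glutaredoxins lower and 1 higher. AOX1a, the alternative oxidase of mitochondria, gave 205, 173 and 177 in WBF and 83.2, 119.7 and 97.2 in MBF, a change of -0.90 (adjusted p = 0.00373, SE 0.14), with 3 of 43 other redox enzymes lower. Both genes were separate between the genotypes. Of the thioredoxins and glutaredoxins 1 was lower without WBF1, WBF2 or MBF2 and 2 without WBF3 or MBF1, and 1 other redox enzyme was lower without WBF1, WBF3, MBF1 or MBF3.

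Beta-glucosidases, which free hormones and defence compounds from their sugar, were lower for 5 of 27 and higher for none, against 4.4% and 2.34% of all genes. BGLU38 was bright at 2592, 3676 and 2833 in WBF and 2224, 1451 and 1425 in MBF, a log2 change of -0.85 (adjusted p = 0.0158, SE 0.17), and BGLU26 gave 584, 644 and 561 in WBF and 394, 303 and 287 in MBF, a change of -0.87 (adjusted p = 0.00667, SE 0.15). Without WBF1, WBF2 or MBF2 the number lower was 2, and without MBF3 it was 3. The call on BGLU38 was lost without WBF2, MBF2 or MBF3 (adjusted p from 0.0561 to 0.0685) and with only the 6 arrays of this stage (adjusted p = 0.0532). CAD7, a cinnamyl alcohol dehydrogenase known in rice for culm lignin, gave 131, 122 and 115 in WBF and 68.1, 81.1 and 61.7 in MBF, a change of -0.81 (adjusted p = 0.0118, SE 0.16) that was lost without WBF1 (adjusted p = 0.0559). PP2C39, a protein phosphatase 2C, changed by -0.98 (adjusted p = 0.00512, SE 0.16) (another, dimmer probe set did not pass), the kinesin KIN14B by -0.88 (adjusted p = 0.00215, SE 0.13) and the beta-tubulin TUB7 by -0.62 (adjusted p = 0.00327, SE 0.10). In each of these genes all fst arrays were below all WT arrays.

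**Figure D4:**
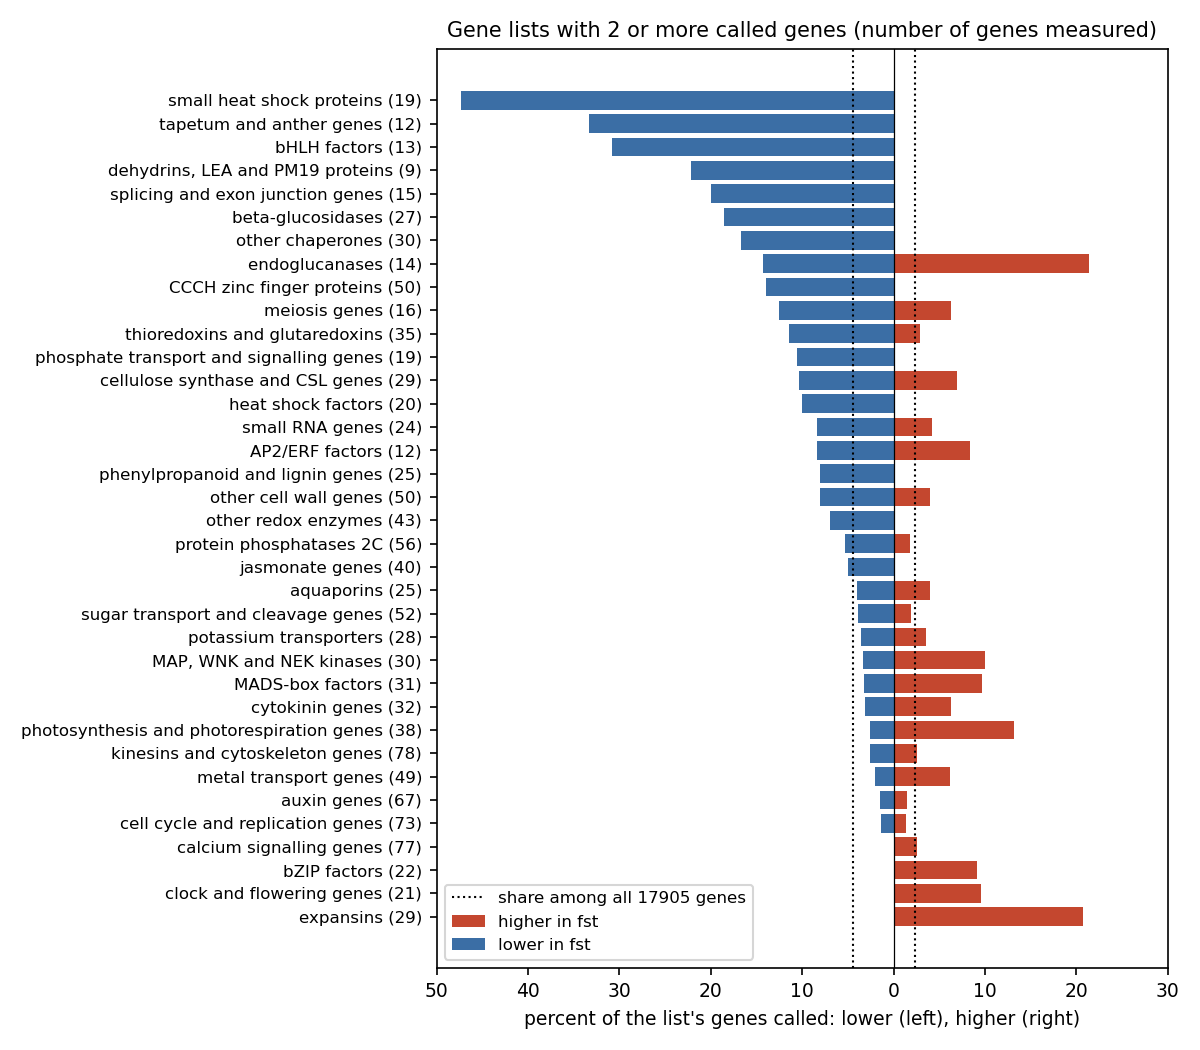
Share of the measured genes of each list that were lower (left, blue) or higher (right, red) in fst before flowering, for lists with at least 2 called genes, with the number measured in brackets and dotted lines at the shares among all 17905 genes (4.4% lower, 2.34% higher). Small heat shock proteins reach furthest to the left and endo-glucanases and expansins furthest to the right.

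Of the 48 lists, 27 had a gene higher and 34 a gene lower, where 2.34% of all genes were higher and 4.4% lower. No gene was called among 25 ribosomal proteins or 19 proteasome subunits with a symbol in the annotation. LOC9267054 (higher) and LOC4346741 (lower), which the study defines by the 26S proteasome, have no symbol there and are not in that list. Cell cycle and replication genes had 1 of 73 higher and 1 lower, and kinesins and cytoskeleton genes 2 of 78 higher (0 or 1 without any 1 of the arrays) and 2 lower. Among calcium signalling genes 2 of 77 were higher, among MAP, WNK and NEK kinases 3 of 30 were higher and 1 lower, and among metal transport genes 3 of 49 were higher and 1 lower. In these last 3 lists the number higher was 0 or 1 without WBF1, WBF3, MBF2 or MBF3, and 1 without MBF1 for calcium signalling and metal transport. The lists follow gene symbols and synonyms of the annotation, and unnamed relatives of a family are not in them. A gene can be in more than 1 list. Further probe sets of GLO5, HSP18.6, PM19L1 and Pht1;7, at mean signals from 6.41 to 32.8, did not pass.

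Among probe sets with 1 listed gene, separate arrays and a mean signal of at least 100, the strongest falls outside the main table of the study lay in genes without a name. Of the 71 probe sets that fell 4-fold or more, 33 had 1 listed gene. LOC4352856, a thaumatin-like protein by its definition, of a group known from plant defence, gave 1148, 1003 and 962 in WBF and 71.2, 44.5 and 36.5 in MBF, a log2 change of -4.41 (adjusted p = 2.58e-05, SE 0.34). LOC4325215, defined by its Brix domain, a mark of proteins that assemble ribosomes, gave 265, 237 and 145 in WBF and 12.1, 11.3 and 9.82 in MBF, a change of -4.24 (adjusted p = 2.34e-07, SE 0.19). LOC4350579, without a definition, gave 283, 197 and 173 in WBF and 12.4, 16.3 and 11.3 in MBF, a change of -4.02 (adjusted p = 5.43e-06, SE 0.26). In each of these every WT array was more than 10-fold above every fst array. The fst signals of LOC4352856 were still above the array medians, while those of LOC4325215 and LOC4350579 were below them. LOC4325213 changed by -3.98 (adjusted p = 5.43e-06, SE 0.26) and LOC4350780 by -3.06 (adjusted p = 1.4e-05, SE 0.22), both without a definition.

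Further genes fell 5-fold to 9-fold. LOC4343037, also of the thaumatin family, gave 219, 217 and 526 in WBF and 28.4, 55.5 and 25.1 in MBF, a log2 change of -3.10 (adjusted p = 0.000326, SE 0.33). LOC4343276, defined as a DNA helicase, gave 372, 293 and 225 in WBF and 52.5, 40.4 and 30.2 in MBF, a change of -2.86 (adjusted p = 8.23e-05, SE 0.26). LOC4334423, of the guanylate-binding proteins, gave 651, 454 and 435 in WBF and 56.3, 81.9 and 88.4 in MBF, a change of -2.77 (adjusted p = 0.000392, SE 0.31). In all of them the genotypes were far apart, with WBF3 alone high for LOC4343037. For LOC4334423, 1 other probe set fell past the test by 2.19 on the log2 scale and 1 did not pass. LOC4333663, a predicted glycosyltransferase, changed by -2.49 (adjusted p = 0.000133, SE 0.24). LOC4346741, named RPN1b after a proteasome subunit, changed by -2.44 (adjusted p = 0.000649, SE 0.29), and its other probe set, less specific by its name, by -0.89.

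Others of these falls varied with the arrays. LOC4331103 gave 145, 139 and 22.3 in WBF and 11.9, 8.90 and 10.9 in MBF, a log2 change of -2.87 (adjusted p = 0.00734, SE 0.51). WBF3 was close to the fst arrays, and without it the change was -3.76. LOC4325085, defined as a galactosyltransferase, gave 190.0, 66.3 and 377 in WBF and 27.3, 53.6 and 22.6 in MBF, a change of -2.39 (adjusted p = 0.0173, SE 0.50), and -3.06 without WBF2, which was near MBF2. Its call was lost without WBF1, MBF1 or MBF3 (adjusted p from 0.0597 to 0.0681) and with only the 6 arrays of this stage (adjusted p = 0.0571), and another probe set of this gene did not pass.

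Falls of this size were in part next to each other on the chromosomes. Of 221 genes that changed at least 2-fold past the test and have a place in the gene order of the assembly ASM3414082v1, 16 lay beside another such gene, in 7 runs, and 14 of the 16 were lower. Falls were the majority of such changes from the start, with 332 probe sets lower and 161 higher. How many neighbours would occur without any clustering was not computed. The paper also reports backcrossing of the allele into other varieties, and the relation of the WT plants to the mutant is not given. Other differences in genetic background, in transcript or in probe match, therefore cannot be told apart from fst. On chromosome 1, LOC4325213 and LOC4325215 were followed by LOC4325216, which gave 163, 219 and 155 in WBF and 90.8, 90.4 and 75.9 in MBF, a log2 change of -1.05 (adjusted p = 0.0017, SE 0.14). TPI, at gene position 298 of this chromosome, lies close to this run at positions 300 to 302. LOC4326386 and LOC4326388, bright neighbours further along chromosome 1, changed by -1.01 (adjusted p = 0.0392, SE 0.25) and -1.59 (adjusted p = 0.00126, SE 0.21). On chromosome 12, LOC4352855 lay beside LOC4352856 and changed by -1.38 (adjusted p = 0.0121, SE 0.27). The only run that rose was LOC4328761 with LOC9266140 on chromosome 2, with changes of 1.10 (adjusted p = 0.00153, SE 0.15) and 1.37 (adjusted p = 0.0152, SE 0.28).

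Chromosome 11 held the largest share of lower genes, 63 of 846 (7.45%), against 3.33% to 4.95% on the other chromosomes. It also held 26 genes at least 2-fold lower past the test, more than chromosome 1 (25), which has 2649 measured genes. Runs on chromosome 11 were LOC4350578, LOC4350579 and LOC4350580 (changes of -1.08, -4.02 and -3.99), LOC9267533 with LOC9270101 (-1.46 and -1.32) and LOC4350779 with LOC4350780 (-1.28 and -3.06). LOC4350580 is in the main table of the study, which gives it as similar to HST. The share of higher genes on this chromosome was 1.77%, within the range of 1.65% to 3.13% over the chromosomes. No test of the difference between chromosomes was made, since neighbouring genes are not independent. The limit set by the unknown background of the WT plants holds for this chromosome too.

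The genotype comparison at 5 days after pollination used other arrays, so it shows which of these differences were present again. Both comparisons came from the same fit with a shared variance for each probe set, so calls at the stages are not independent. Of the 1039 probe sets higher before flowering, 219 were higher again (21.1% of them, and 6.15% of the 3559 higher at 5 days), and 44 were lower. Of the 1605 lower, 394 were lower again (24.5%, and 12.7% of the 3096 lower at 5 days), and 89 were higher. At least 2-fold, 24 of 161 rises and 113 of 332 falls were called in the same direction at 5 days. At 5 days 6.22% of all probe sets were higher and 5.41% lower, and the effects of fst at the stages differed past the test for 6.35% of all probe sets, 321 of the higher (30.9%) and 611 of the lower (38.1%).

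Several rises before flowering turned or did not pass at 5 days. At 5 days GLU8 changed by -1.77 (adjusted p = 0.00079, SE 0.27) and GLU13 by -1.62 (adjusted p = 1.28e-05, SE 0.14), opposite to those before flowering, CPK21 by -1.87 (adjusted p = 0.000706, SE 0.28) and LOC9267054 by -2.55 (adjusted p = 0.000303, SE 0.34). The expansins EXPA29, EXPB2 and EXPA2 had values from -0.01 to 0.05 at 5 days, none past the test. In all of these the difference between the stages passed. Other rises were present at both stages. NDH-M had 0.97 (adjusted p = 3.83e-05, SE 0.10) at 5 days, CSLC9 0.69 (adjusted p = 0.000605, SE 0.10), BZIP02 0.87 (adjusted p = 0.00511, SE 0.17) and LOC4334965 1.36 (adjusted p = 4.69e-05, SE 0.14), and for these the difference between the stages did not pass.

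Falls of heat shock genes were deeper at 5 days for some members, with -3.13 (adjusted p = 1.05e-07, SE 0.16) for HSP26.7, -4.59 (adjusted p = 1.36e-06, SE 0.32) for HSP23.2 and -1.37 (adjusted p = 1.28e-05, SE 0.12) for HSP81-1, and the difference between the stages passed for these. The tapetum regulators had 0.19 for TDR and 0.07 for EAT1 at 5 days and did not pass there. IAA14 and CSLC2 turned from lower before flowering to higher at 5 days, with 1.16 (adjusted p = 0.000449, SE 0.16) and 0.78 (adjusted p = 0.000206, SE 0.10). LOC4325215 was lower in fst at both stages, with -3.13 (adjusted p = 3.87e-07, SE 0.19) at 5 days, while LOC4343037 and LOC4346741 had 0.07 and 0.81 there and did not pass.

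**Figure D5:**
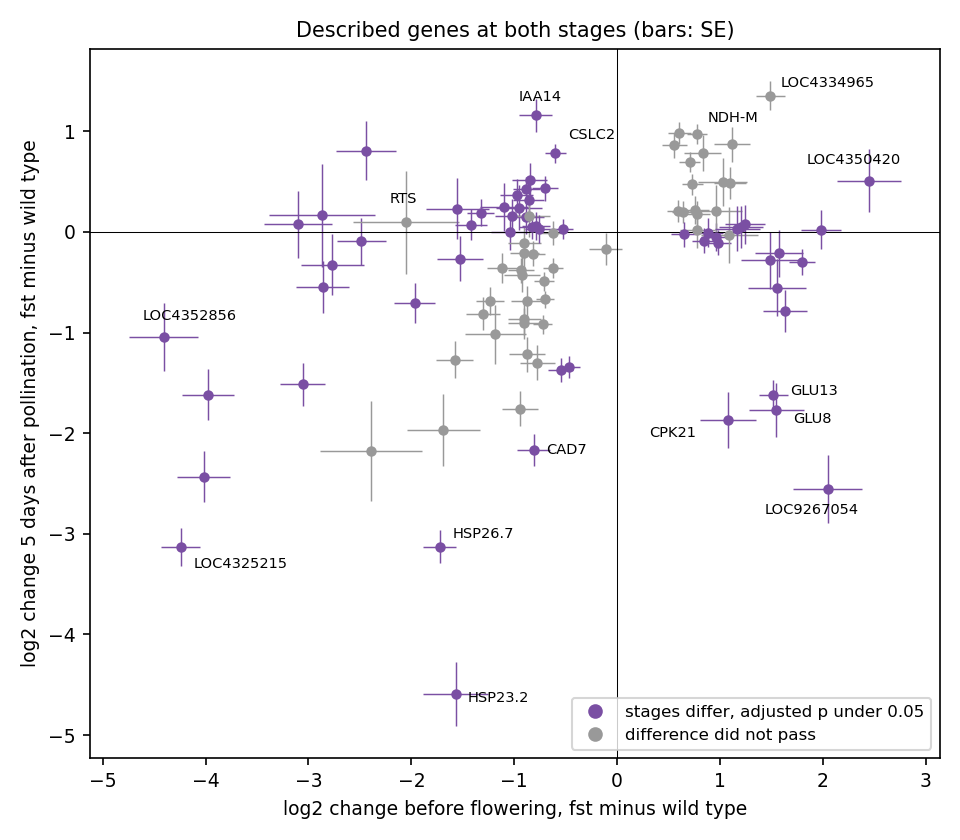
Log2 change of fst against WT for each described gene, with 1 probe set per gene, before flowering (x axis) and at 5 days after pollination (y axis), with bars of 1 SE. Purple points differ between the stages (adjusted p under 0.05), among them GLU8, GLU13, CPK21 and LOC9267054, which lie right of 0 and below 0, and IAA14 and CSLC2, left of 0 and above it.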

How the data were processed

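Total RNA of pooled panicles was measured on the Affymetrix Rice GeneChip. The values analysed are the intensity values (signals) that the authors deposited, computed by RMA with the Expression Console of Affymetrix, which corrects background, equalizes the distributions of the arrays and summarizes each probe set. The version was not given in the sources used here, no detection calls were used, and the number of arrays limits the precision. The signals were on a linear scale (lowest 3) and were taken to log2. The 123 control probe sets were left out.

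A mean for each of 4 groups (WBF, MBF and the WT and fst arrays at 5 days after pollination) was fitted to 57258 probe sets over 12 arrays with lmFit and eBayes of limma 3.58.1 in R 4.3.3, which left 8 residual degrees of freedom. The contrasts were MBF minus WBF, the same at 5 days, and their difference. P-values were adjusted over all probe sets (Benjamini-Hochberg), with a threshold of 0.05. The study's methods name a signal ratio and no test. An exact permutation test of 3 against 3 arrays cannot go below 0.1.

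The platform table gave 1 gene to 22436 probe sets, several to 95 and none to 34727. Names come from symbols and synonyms in the annotation ASM3414082v1, and definitions of unnamed genes are those of the study's tables. Each gene was represented in list counts by its brightest probe set over all arrays (17905 genes). Genes were described by rule: FST and the other B-sister gene, the 12 largest rises and falls with separate arrays, 1 gene and a mean signal of at least 100 outside the main table of the study (again among named genes), the 12 moderate changes (1.5-fold to 4-fold) with the smallest p in each direction, and up to 4 called genes of each list and direction, of which the text gives a part. GLUA-2, the gene C6 and genes in runs of neighbours or within markers were named beside them after their values were seen. Members, lists and rule were chosen with earlier results of these data known.

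Alternatives were quantile normalization again, median centring, leaving out dim probe sets, leaving out cross-hybridizing probe sets, 1 probe set per gene, fitting only the 6 arrays of this stage, eBayes with trend and robust settings, array weights, adding 16 to the signals, a block for the replicate number, a stricter threshold (0.01), and leaving out each array. The fit was tested on simulated data with 200 changed probe sets. Fold changes that the authors computed in their tables were not used. The labels give no batch or scan date, and no sequences were used.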

Additional observations from a re-analysis of the deposited data

Results flagged for a closer look

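The effect of fst at 5 days after pollination differed from that before flowering, by the difference of both contrasts in limma (adjusted p under 0.05), for 57 of the 103 probe sets described, against 6.35% of all probe sets. The probe sets were chosen for their change before flowering, so this share is a description. The values below are the log2 change at 5 days minus that before flowering.

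Genes that rose before flowering had negative differences. Among wall genes these were -3.32 for GLU8, -3.14 for GLU13, -1.16 for EXPA29, -1.14 for EXPB2, -1.01 for CSLD5 and -0.89 for EXPA2. For genes of transport, signalling and regulation they were -2.95 for CPK21, -1.17 for SIP2;1, -1.09 for FST, -0.93 for SPL18 and -0.67 for SPO11-4. The unnamed genes ran from -4.60 for LOC9267054 over -2.42 for LOC4342820, -2.11 for LOC4328169, -2.09 for LOC4328807, -1.94 for LOC4350420, -1.79 for LOC4351057 and -1.77 for LOC4325521 to LOC4350552, whose probe sets gave -1.96 and -1.44.

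Genes that fell before flowering had mostly positive differences where the fall was smaller or turned at 5 days. Of the strongest falls, LOC4352856 had 3.36, LOC4346741 3.25, LOC4343037 3.18, LOC4331103 3.04, LOC4334423 2.44, LOC4333663 2.39, LOC4325213 2.36, LOC4343276 2.31, LOC4350579 1.59, LOC4350780 1.54 and LOC4325215 1.11. In the anther genes the difference was 1.52 for TDR, 1.49 for EAT1 and 1.19 for RAFTIN1. Wall genes had 1.38 for CSLC2, 1.35 for GLU14, 1.18 for CSLF8, 0.79 for BC1L6 and 0.55 for GLU1. Transporters had 1.78 for Pht1;7, 1.26 for Pht1;12, 1.04 for HAK26 and 0.85 for SWEET2b. Regulators and RNA-binding proteins had 1.95 for IAA14, 1.34 for PP2C39, 1.18 for C3H54, 1.04 for MADS26 and 0.88 for PRP19. The remaining genes of this kind were BGLU38 with 1.37, KIN14B with 1.30, TPI with 1.26 and PRDA1 with 1.13.

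A few falls were deeper at 5 days. The difference was -3.02 for HSP23.2, -1.41 for HSP26.7, -1.35 for CAD7, -0.88 for RSZ21a and -0.83 for HSP81-1.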

How the results depend on the processing

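Of 103 probe sets described, 102 were called. Of these, 75 kept the call without each array in turn and 89 under every other alternative at the same threshold. MADS30, which was not called, changed sign without MBF replicate 1, to a log2 change of 0.0031 (-0.19 to 0.0031 over the fits that leave out 1 array). The number of probe sets higher in fst was 1039, and 607 with 1 probe set per gene, 2284 with array weights and 280 at an adjusted p under 0.01. The number lower was 1605, and 2804 with array weights and 561 at an adjusted p under 0.01. At least 2-fold changes, 161 higher and 332 lower, numbered 76 higher and 149 lower with 1 probe set per gene, and 191 lower with 16 added to the signals. Leaving out 1 array gave 411 to 775 higher and 730 to 1297 lower, and 123 to 207 higher and 296 to 371 lower by at least 2-fold. The cause of these shifts was not tested, except that 1 probe set per gene tests fewer probe sets, a lower threshold passes fewer, and leaving out an array leaves fewer arrays. With the replicate number as a block, 730 were higher and 1197 lower (159 and 318 by at least 2-fold), and 8 of the 103 probe sets lost the call. The numbers did not pair the arrays: same-numbered WBF and MBF arrays deviated from their group means with correlations of -0.05, -0.01 and 0.06. At an adjusted p under 0.01, 28 lost it. Precision is limited by 3 arrays per group, and signals near the lower quartile of an array (10.1 to 11.3) set no firm size for a fold change.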
